A study of Homo sapiens with 16 samples.

Results

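The T-lineage transcription factors described here are proteins that set and hold T-cell identity and several of which are recurrently altered in T-cell acute lymphoblastic leukaemia (T-ALL). The list held 10 genes, and its members were all probe sets whose only gene symbol in the platform annotation was a listed one. This rule found 8 of the 10 genes with 32 probe sets, out of 19775 genes and 41097 probe sets with 1 symbol. They were GATA3 with 3 probe sets, BCL11B with 3, LEF1 with 3, RUNX3 with 3, IKZF1 with 9, ETV6 with 5, PHF6 with 2 and TCF12 with 4. All 13 probe sets that named RUNX1 carried several symbols, and no probe set carried the symbol TCF7, so both genes were not analysed here. The symbols alone chose the probe sets, but it was already known from these arrays that IKZF1 probe sets disagreed.

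The arrays measured 4 established human T-ALL lines, CEM, CUTL1, DND41 and Jurkat. Each line was given 1 uM PD-0332991 or the vehicle DMSO for 15 h, with 2 arrays for each line and treatment and 16 arrays in all. PD-0332991 (palbociclib) inhibits the cell cycle kinases CDK4 and CDK6. A level below is the log2 of the deposited intensity of a probe set, and a change is PD-0332991 minus DMSO on that scale. A value was called when its limma p, adjusted by Benjamini-Hochberg over all probe sets tested, was under 0.05.

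In the thymus, Notch signalling turns on a network of factors in progenitor cells. TCF7 (TCF1) and GATA3 act early, BCL11B closes the way to other lineages, and LEF1, RUNX3, Ikaros (IKZF1) and the E protein HEB (TCF12) then shape receptor rearrangement and the choice between the CD4 and CD8 fates. ETV6 and PHF6 act more widely in blood cells and are inactivated by mutation in part of T-ALL, as are GATA3, BCL11B, LEF1 and IKZF1.

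The lines matched the labelled cell type in their markers. All 8 T-cell markers (CD3D, CD3E, CD3G, CD247, CD2, CD5, CD7 and LCK) lay above the median of all deposited values on every array. Among markers of other cell types, MS4A1 of B cells, CD14, LYZ and MPO of myeloid cells, GZMB and KLRD1 of cytotoxic cells, CDH5, COL1A2 and COL3A1 of vessels and connective tissue, and CDH1 and KRT19 of epithelium lay below that median on every array. Others lay above it on every array, namely CD79A, CD79B and CR2 of B cells, CSF1R, EPOR, HBB, ITGA2B and PF4 of myeloid, erythroid and megakaryocyte cells, NCAM1, NKG7 and PRF1 of cytotoxic cells, and COL1A1, PECAM1, KRT8 and KRT18. The summed T-cell marker intensity was 28290 to 41700 with PD-0332991 and 24350 to 36690 with DMSO. The sum was 482 to 2924 with PD-0332991 and 401.6 to 2206 with DMSO for 6 B-cell markers, and 504 to 2785 and 483 to 1887 for 7 cytotoxic markers. In the average effect 7 of 8 T-cell markers, 2 of 4 tested B-cell markers and 3 of 5 tested cytotoxic markers rose and 0 fell, where 25.4% of all genes rose and 19.3% fell. Of the other lists, 1 of 4 fibroblast or endothelial markers (PECAM1, 0.35), 1 of 5 erythroid or megakaryocyte markers (ALAS2, 0.25), 0 of 1 myeloid and 0 of 3 epithelial markers rose, and 0 fell. Replicate arrays correlated at r of 0.991 to 0.997 across the 24893 probe sets tested for treatment, and the PD-0332991 arrays of DND41 were the least alike. The probe sets for 18S ribosomal RNA averaged 12.45 and 12.75 in DND41 with PD-0332991, against 13.21 and 13.26 with DMSO. In CUTL1 they averaged 12.80 and 12.67 with PD-0332991, against 13.28 and 13.17 with DMSO. In CEM they averaged 13.21 and 13.08 with PD-0332991, against 13.25 and 12.56 with DMSO, so that the second DMSO array was low. The part of these array differences in the results below was not tested. In RNA from whole cultures, a change in the share of cells that express a gene and a change in RNA per cell cannot be told apart.

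Several of these factors are known to bind the control regions of each other, and the core motif of the RUNX proteins, ACCACA, is shown here because RUNX3 was the gene whose level differed most between the lines. The RefSeq table of 300-base windows (250 bases before to 50 after a transcript start, build GRCh38.p14) held 19 windows for 7 of the 8 genes with probe sets, and PHF6 was named only. Both strands were searched. The letters for GATA proteins were AGATAA and, as the other form, TGATAA. The letters for TCF and LEF proteins were CTTTGA. Those for Ikaros were TGGGAA, and those for E proteins were CAGGTG. For ETS proteins the search used CCGGAAGT. The letters of the motifs and the windows to print were chosen after the sequences had been seen. Of the 19 windows, 4 held the RUNX letters, 6 the Ikaros letters, 1 the GATA letters, 1 the TCF and LEF letters, 1 the E protein letters and 0 the ETS letters. Of all 35116 windows in the table, 13.1% held the RUNX letters, 24.0% the Ikaros letters, 16.3% the GATA letters, 12.9% the TCF and LEF letters, 20.6% the E protein letters and 4.14% the ETS letters. No match overlapped another. A match is a description of the letters and not of binding.

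The 4 windows with RUNX letters are printed 5′ to 3′ on the strand of the gene, with every match of a searched motif in capitals. They lie at chr1:24964961-24965260 (minus strand, RUNX3), chr4:108166252-108166551 (minus strand, LEF1), chr7:50308450-50308749 (plus strand, IKZF1) and chr10:8050986-8051285 (plus strand, GATA3), and each spans a transcript start.
RUNX3: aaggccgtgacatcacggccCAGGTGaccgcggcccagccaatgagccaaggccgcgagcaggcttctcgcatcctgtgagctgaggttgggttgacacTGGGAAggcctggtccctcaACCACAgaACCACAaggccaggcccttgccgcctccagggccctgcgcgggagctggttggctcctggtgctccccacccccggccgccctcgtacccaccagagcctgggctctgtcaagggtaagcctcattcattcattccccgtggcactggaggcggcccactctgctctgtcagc
LEF1: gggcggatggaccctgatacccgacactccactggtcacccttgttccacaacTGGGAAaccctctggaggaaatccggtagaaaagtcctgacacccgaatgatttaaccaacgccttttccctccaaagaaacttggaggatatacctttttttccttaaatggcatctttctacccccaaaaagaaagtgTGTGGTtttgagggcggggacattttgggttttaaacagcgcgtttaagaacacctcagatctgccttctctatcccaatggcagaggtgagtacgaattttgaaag
IKZF1: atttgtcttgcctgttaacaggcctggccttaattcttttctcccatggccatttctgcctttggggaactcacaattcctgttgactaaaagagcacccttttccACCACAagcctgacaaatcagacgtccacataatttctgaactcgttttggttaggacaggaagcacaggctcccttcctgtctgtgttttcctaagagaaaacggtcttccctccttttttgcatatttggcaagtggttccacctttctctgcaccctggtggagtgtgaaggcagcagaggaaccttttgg
GATA3: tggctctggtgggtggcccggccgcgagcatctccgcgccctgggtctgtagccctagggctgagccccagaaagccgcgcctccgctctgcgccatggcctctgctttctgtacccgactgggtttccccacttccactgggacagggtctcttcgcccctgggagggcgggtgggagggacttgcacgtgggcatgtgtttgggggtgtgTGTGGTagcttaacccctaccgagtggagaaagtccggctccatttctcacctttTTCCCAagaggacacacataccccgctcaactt
The RUNX3 window holds ACCACA at 2 places and 1 match each of the Ikaros and E protein letters. The RUNX letters in the LEF1 and GATA3 windows are on the opposite strand (TGTGGT), each with 1 match of the Ikaros letters, and the IKZF1 window holds ACCACA alone.

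With DMSO alone, 24 of the 32 probe sets differed between the lines in the F test over the 4 lines, against 43.1% of all 41097 probe sets. All 24 were among the 28 bright enough for the treatment test, against 63.3% of all probe sets that bright. The factors did not share 1 order of lines. RUNX3 was low in CEM, ETV6 was high in CEM and low in CUTL1, IKZF1 was low in DND41, and GATA3 and BCL11B were high in CUTL1. In 26 of the 32 probe sets the range of DMSO means over the lines was larger than the largest change with PD-0332991 in any line, against 67.4% of all 41097 probe sets. Among the 28 bright enough for the treatment test it was larger in 24, against 73.8%. Between single pairs of lines, the share of all probe sets called was 23.5% for CEM minus CUTL1, 24.6% for CEM minus DND41, 25.5% for CEM minus Jurkat, 23.8% for CUTL1 minus DND41, 28.1% for CUTL1 minus Jurkat and 26% for DND41 minus Jurkat. Without 1 DMSO array the F test was lost for GATA3 209602_s_at (CUTL1 array 2, adjusted p 0.117), IKZF1 205039_s_at (DND41 array 1, 0.0518), IKZF1 216901_s_at (CEM array 1, 0.0542), ETV6 239364_at (DND41 array 1, 0.06) and ETV6 239740_at (CEM array 2, 0.087). IKZF1 1565818_s_at lost it without CEM array 2 or either DND41 array (up to 0.0905), and PHF6 224442_at in 10 of 16 such fits (up to 0.363).

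**Figure D1:**
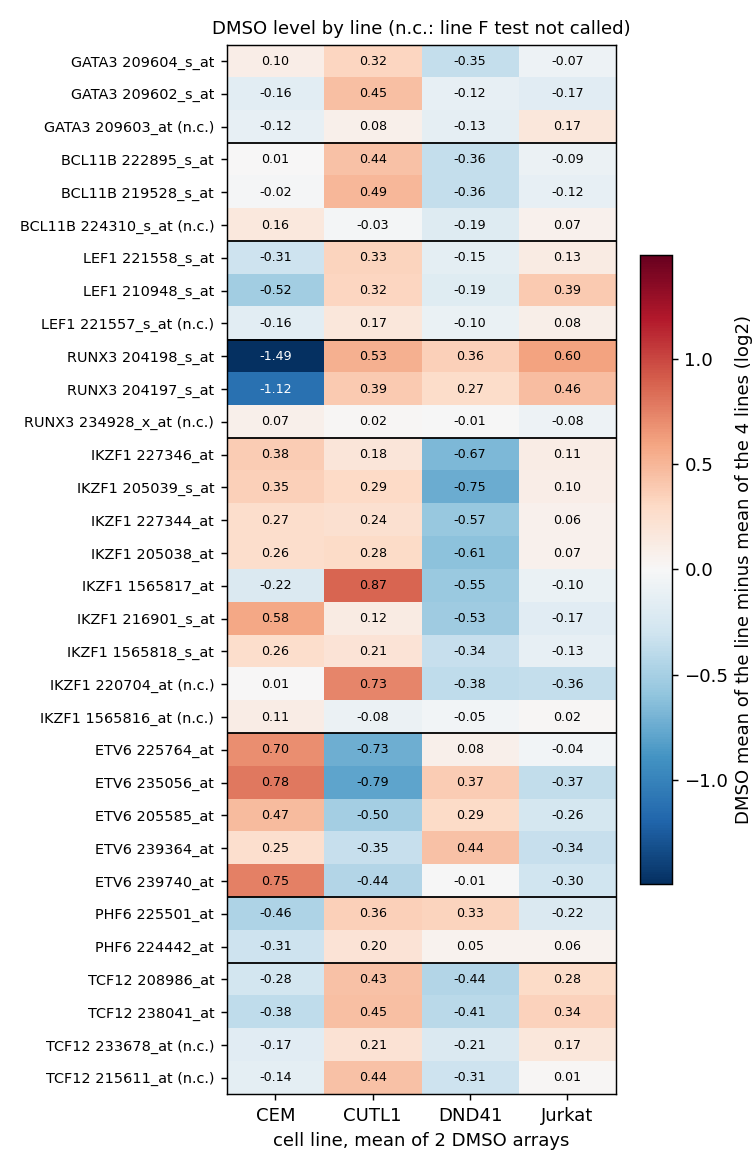
DMSO level of each of the 32 probe sets (rows) in the 4 lines (columns), as the mean of 2 arrays minus the mean over the lines on the log2 scale; red is higher, blue lower, and n.c. marks rows whose line F test was not called. CEM stands apart in the first 2 RUNX3 rows, CUTL1 is lowest in all 5 ETV6 rows, and DND41 is lowest in all 7 IKZF1 rows that were called.

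RUNX3, a Runt-domain factor of the CD8 lineage that silences CD4, showed the widest range. Its brightest probe set, 204198_s_at, had DMSO levels of 5.74 and 5.83 in CEM, 7.89 and 7.73 in CUTL1, 7.55 and 7.71 in DND41, and 7.83 and 7.93 in Jurkat. CEM lay below the other lines with no overlap. The difference of CEM minus Jurkat was -2.10 (SE 0.104, 4.28-fold lower in CEM, limma adjusted p 8.75e-09), and the 3 differences among CUTL1, DND41 and Jurkat were not called (adjusted p 0.104 to 0.697). The probe set 204197_s_at gave the same order, with CEM minus Jurkat at -1.58 (SE 0.163). The third, 234928_x_at, lay between 5.34 and 5.65 on every DMSO array and did not differ between lines (adjusted p 0.761).

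ETV6, an ETS-family repressor, had the next widest range among leading probe sets. Its brightest probe set, 225764_at, had DMSO levels of 9.40 and 9.45 in CEM and 8.04 and 7.94 in CUTL1. DND41, at 8.79 and 8.81, and Jurkat, at 8.65 and 8.71, lay between them. CEM was highest and CUTL1 lowest, with no overlap between lines. The difference of CEM minus CUTL1 was 1.43 (SE 0.080, adjusted p 2.56e-08), and DND41 minus Jurkat was not called (adjusted p 0.333). All 5 ETV6 probe sets differed between the lines and were lowest in CUTL1, and CEM was highest in 4 of the 5 (DND41 in 239364_at).

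IKZF1 encodes Ikaros, a zinc finger protein that recruits chromatin remodelling complexes and is spliced into forms with and without DNA-binding fingers. Its brightest probe set, 227346_at, had DMSO levels of 11.88 and 11.99 in CEM, 11.71 and 11.75 in CUTL1, 11.62 and 11.71 in Jurkat, and 10.95 and 10.82 in DND41. DND41 lay below the other lines, with CEM minus DND41 at 1.05 (SE 0.084, 2.08-fold, adjusted p 8.76e-07). Of its 9 probe sets, 7 differed between lines, and all 7 were lowest in DND41. The others, 220704_at and 1565816_at, failed the filter on dim values used for the treatment test. Neither was called in the F test (adjusted p 0.0597 and 0.678), and 1565816_at was lowest in CUTL1. The order of the other lines was not shared, since 1565817_at was highest in CUTL1, at 7.18 and 7.26, against 6.17 and 6.10 in CEM.

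GATA3, the zinc finger factor that commits progenitors to the T lineage, and BCL11B, which shuts off other fates, were highest in CUTL1 and lowest in DND41 in their brightest probe sets. GATA3 209604_s_at had DMSO means of 11.57 in CUTL1, 11.35 in CEM, 11.18 in Jurkat and 10.90 in DND41, and CUTL1 minus DND41 was 0.67 (SE 0.083, adjusted p 4.46e-05). BCL11B 222895_s_at had means of 12.24, 11.81, 11.71 and 11.45 in the same order of lines, and CUTL1 minus DND41 was 0.79 (SE 0.124, adjusted p 0.000345). CEM and Jurkat were not told apart in either (adjusted p 0.162 for GATA3 and 0.645 for BCL11B). The other probe sets of these genes did not all follow. GATA3 209602_s_at was called and highest in CUTL1, but DND41 was second and Jurkat lowest, and GATA3 209603_at and BCL11B 224310_s_at were not called (adjusted p 0.0581 and 0.552).

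LEF1, the HMG-box partner of beta-catenin, and TCF12, an E protein, were highest in CUTL1 and Jurkat. LEF1 221558_s_at had DMSO means of 12.73 in CEM, 13.37 in CUTL1, 12.89 in DND41 and 13.17 in Jurkat, and CEM minus CUTL1 was -0.64 (SE 0.089, adjusted p 0.000144). TCF12 208986_at had means of 11.39 in CUTL1, 10.52 in DND41, 10.68 in CEM and 11.24 in Jurkat, and CUTL1 minus DND41 was 0.88 (SE 0.147, adjusted p 0.000623). CUTL1 and Jurkat were not told apart in either gene (adjusted p 0.115 and 0.529). PHF6, an X-linked zinc finger protein of chromatin, had DMSO means of 11.05 in CEM, 11.87 in CUTL1, 11.84 in DND41 and 11.29 in Jurkat in 225501_at. CEM minus CUTL1 was -0.82 (SE 0.158, adjusted p 0.0019), while CEM minus Jurkat was not called (adjusted p 0.328).

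The treatment comparison asked how 15 h of CDK4 and CDK6 inhibition moved the factors. More of them rose than fell. Averaged over the 4 lines, 11 of the 28 tested probe sets were higher with PD-0332991 and 2 were lower, against 21.9% higher, 19.2% lower and 41.1% in either direction among all 24893 probe sets tested. At an unadjusted p under 0.05 there were 17 of 28. The share of all probe sets at that threshold was not counted and is at least the 41.1% called. The median change of the 28 was 0.12, against 0.02 over all probe sets tested. GATA3, BCL11B, LEF1, IKZF1 and ETV6 each had at least 2 probe sets that rose, RUNX3 and IKZF1 each had 1 that fell, and none of PHF6 or TCF12 was called. The other 4 of the 32 probe sets (IKZF1 220704_at and 1565816_at, TCF12 233678_at and 215611_at) were too dim to test.

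**Figure D2:**
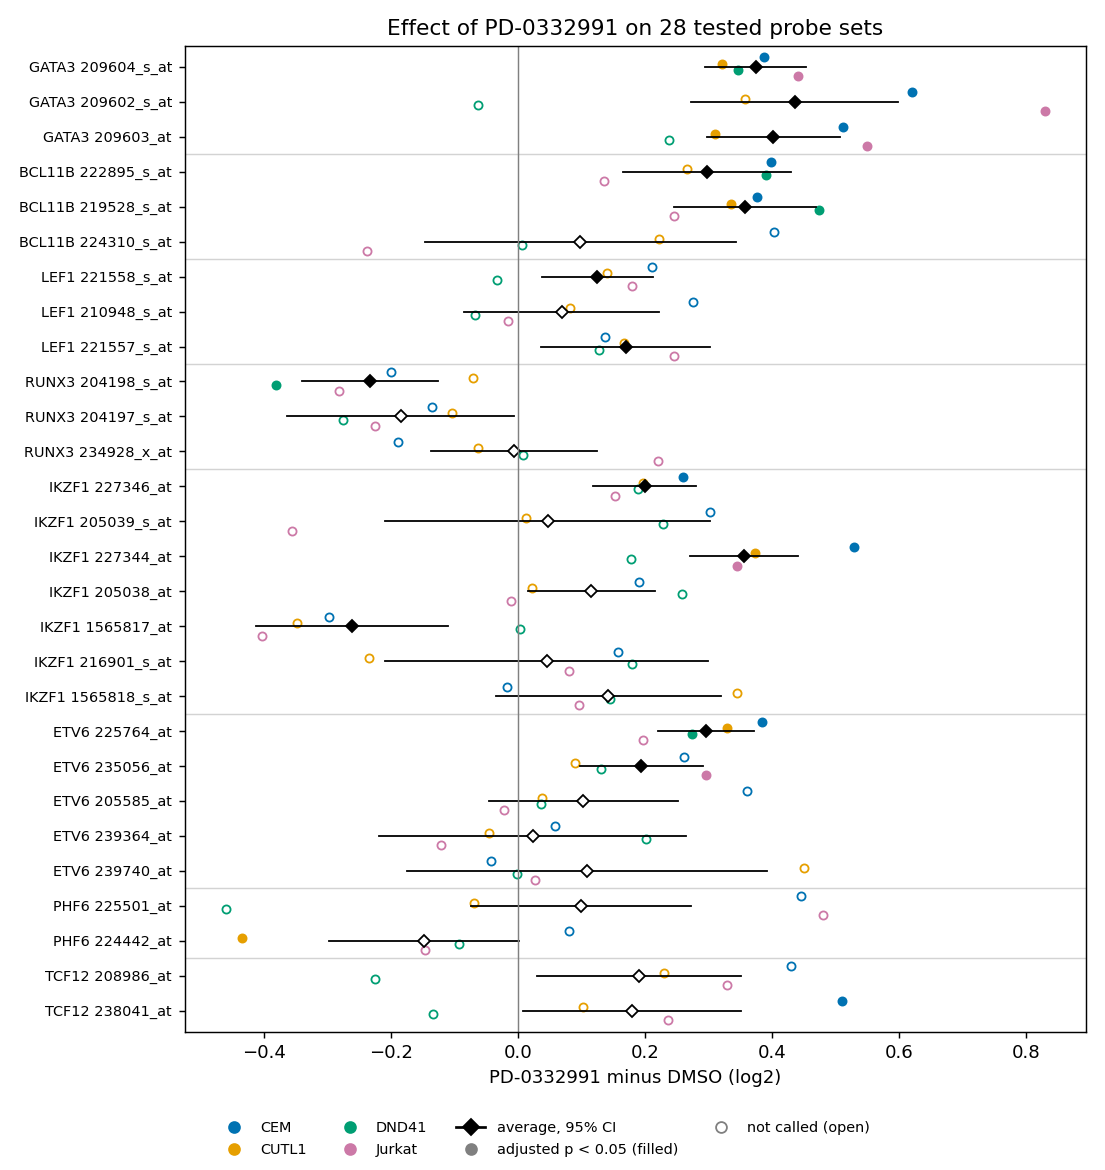
Change with PD-0332991 (log2, PD-0332991 minus DMSO) of the 28 tested probe sets; circles are the lines, diamonds the average of the 4 lines with its 95% interval, and filled symbols passed an adjusted p of 0.05. The 3 GATA3 diamonds lie at 0.37 to 0.44, and the filled diamonds left of 0 belong to RUNX3 204198_s_at and IKZF1 1565817_at.

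Within single lines, 9 of the 28 probe sets rose and 0 fell in CEM (background 12.8% and 9.13%, 21.9% either way), and 5 rose and 1 fell in CUTL1 (10.4% and 11.3%, 21.7% either way). In DND41 4 rose and 1 fell (8.07% and 16.5%, 24.6% either way), and in Jurkat 5 rose and 0 fell (11.4% and 9.58%, 21% either way). At an unadjusted limma p under 0.05 there were 14 in CEM, 10 in CUTL1, 10 in DND41 and 12 in Jurkat. The shares of all probe sets at that threshold were not counted and are at least the shares called either way. Both PD-0332991 arrays lay above both DMSO arrays for 18 probe sets in CEM, 14 in CUTL1, 10 in DND41 and 14 in Jurkat, and below them for 2, 5, 5 and 6. Over all probe sets tested, the share without overlap in either direction was 61.8% in CEM, 59.3% in CUTL1, 62.3% in DND41 and 61.2% in Jurkat. The DND41 counts moved most with scaling, to 9 higher and 0 lower after quantile normalization and to 2 and 2 after centring arrays on their medians. Without DND41, the average effect gave 13 higher and 2 lower, with no share over all probe sets counted for that fit.

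The brightest GATA3 probe set, 209604_s_at, rose in all 4 lines. It had levels of 11.73 and 11.75 in CEM with PD-0332991, against 11.32 and 11.37 with DMSO. In CUTL1 it had 11.93 and 11.85 with PD-0332991, against 11.59 and 11.55 with DMSO. DND41 gave 11.32 and 11.17 with PD-0332991, against 10.88 and 10.91 with DMSO, and Jurkat gave 11.61 and 11.62, against 11.20 and 11.16. Treated arrays lay above DMSO arrays in every line, without overlap. The average change was 0.37 (SE 0.036, 1.30-fold, limma adjusted p 6.6e-06), with line changes of 0.32 to 0.44, all called. The DND41 call was lost with the GATA3 probe sets averaged (0.17, limma adjusted p 0.1) and from the DND41 arrays alone (0.0964). From the CUTL1 arrays alone the CUTL1 call was lost as well (limma adjusted p 0.077). The probe sets 209602_s_at and 209603_at rose on average by 0.44 (SE 0.074) and 0.40 (SE 0.048). In 209602_s_at the change was 0.83 in Jurkat and -0.06 in DND41, and DND41 minus Jurkat was -0.89 (SE 0.210, adjusted p 0.0329). The call of 209604_s_at in CUTL1 was lost without CUTL1 PD-0332991 array 1 (adjusted p 0.069). That of 209602_s_at in CEM was lost without CEM DMSO array 2 or CEM PD-0332991 array 1 (up to 0.118), and that of 209603_at in CUTL1 without any CEM array, CUTL1 DMSO array 1 or any PD-0332991 array of CUTL1 or Jurkat (up to 0.246).

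BCL11B rose in 2 of its 3 probe sets. The brightest, 222895_s_at, had 12.19 and 12.23 in CEM with PD-0332991, against 11.72 and 11.90 with DMSO, and in CUTL1 12.59 and 12.42, against 12.31 and 12.17. In DND41 it had 12.02 and 11.66 with PD-0332991, against 11.45 and 11.45 with DMSO, and in Jurkat 11.86 and 11.83, against 11.63 and 11.80. The treated arrays were higher in every line without overlap, and the treated pair of DND41 was wide apart. The average change was 0.30 (SE 0.060, 1.23-fold, adjusted p 0.00186), and that of 219528_s_at was 0.36 (SE 0.051, adjusted p 0.000142). In single lines, 222895_s_at was called in CEM and DND41 and 219528_s_at in CEM, CUTL1 and DND41. The low 224310_s_at changed by 0.10 on average and was not called. The CEM call of 222895_s_at was lost without any 1 of the 4 CEM arrays, either DND41 DMSO array or either Jurkat PD-0332991 array (adjusted p up to 0.209), and its DND41 call without DND41 PD-0332991 array 1, either DND41 DMSO array or either Jurkat PD-0332991 array (up to 0.27). For 219528_s_at the CEM call was lost without CEM DMSO array 1 or CEM PD-0332991 array 2 (up to 0.182), the DND41 call without DND41 DMSO array 2 (0.0623), and the CUTL1 call without any 1 of the 4 CUTL1 arrays or either Jurkat PD-0332991 array (up to 0.137).

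**Figure D3:**
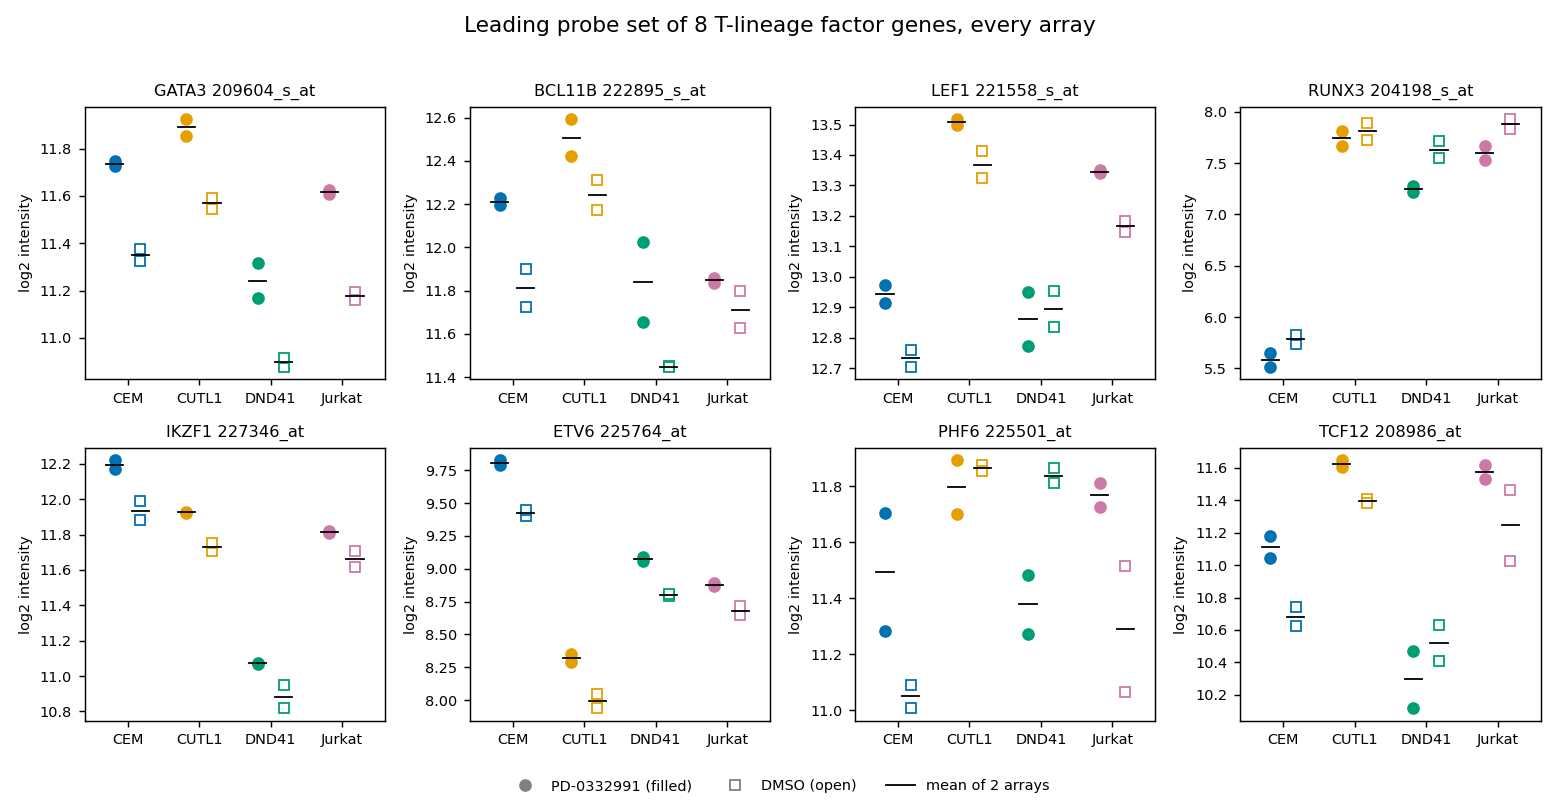
Level (log2 intensity) of the brightest probe set of each of the 8 genes on all 16 arrays; filled circles are PD-0332991 arrays, open squares DMSO arrays, and lines the mean of 2 arrays. GATA3, BCL11B, IKZF1 and ETV6 are higher with PD-0332991 in all 4 lines without overlap, RUNX3 is lower in CEM, DND41 and Jurkat, and PHF6 goes up in CEM and Jurkat and down in DND41.

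LEF1 changed little. In 221558_s_at the levels were 12.91 and 12.97 in CEM with PD-0332991, against 12.70 and 12.76 with DMSO, and 12.77 and 12.95 in DND41, against 12.95 and 12.84. The groups overlapped in DND41, while in CEM, CUTL1 and Jurkat the treated arrays were higher. The average change was 0.12 (SE 0.040, adjusted p 0.0255), and 221557_s_at rose by 0.17 (SE 0.061, adjusted p 0.0424), with no call in any single line. The call of 221558_s_at was lost without CEM DMSO array 1, CEM PD-0332991 array 2, CUTL1 DMSO array 2, CUTL1 PD-0332991 array 1, DND41 DMSO array 2 or either Jurkat PD-0332991 array (adjusted p 0.0505 to 0.0678). That of 221557_s_at was lost in 10 of the 16 fits that each left out 1 array (adjusted p up to 0.101).

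RUNX3 fell, against the direction of GATA3 and BCL11B. In DND41, 204198_s_at had 7.28 and 7.22 with PD-0332991, against 7.55 and 7.71 with DMSO. Jurkat had 7.67 and 7.53 with PD-0332991, against 7.83 and 7.93 with DMSO, and CEM had 5.65 and 5.52, against 5.74 and 5.83. The treated arrays were lower in these 3 lines without overlap, and in CUTL1 they overlapped, at 7.67 and 7.81, against 7.89 and 7.73. The average change was -0.23 (SE 0.049, 1.18-fold lower, adjusted p 0.00228), and DND41 was the only line with a call (-0.38, SE 0.097, adjusted p 0.0156). The DND41 call was lost after quantile normalization (-0.26, limma adjusted p 0.0709). It was also lost with the replicate numbers as a block (0.0569) and from the DND41 arrays alone (0.0861). The probe set 204197_s_at changed by -0.18 (SE 0.0815, adjusted p 0.0934) and 234928_x_at by -0.01 (SE 0.060). With each line's mean difference as 1 replicate the average fall of 204198_s_at was not called (adjusted p 0.0961), and the DND41 call was lost without DND41 DMSO array 2 (0.128) or DND41 PD-0332991 array 2 (0.055).

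ETV6 rose in its brightest probe set in every line. Levels of 225764_at were 9.79 and 9.82 in CEM with PD-0332991, against 9.40 and 9.45 with DMSO, and 8.35 and 8.29 in CUTL1, against 8.04 and 7.94. In DND41 they were 9.09 and 9.06 with PD-0332991, against 8.79 and 8.81 with DMSO, and in Jurkat 8.89 and 8.87, against 8.65 and 8.71. No line overlapped. The average change was 0.30 (SE 0.035, 1.23-fold, adjusted p 3.11e-05), called in CEM (0.38), CUTL1 (0.33) and DND41 (0.27), and 0.20 in Jurkat (adjusted p 0.0658). With the ETV6 probe sets averaged, CUTL1 (0.17, limma adjusted p 0.0877) and DND41 (0.13, limma adjusted p 0.185) were not called. The probe set 235056_at rose by 0.19 on average (SE 0.044, adjusted p 0.00398) and in Jurkat by 0.30, and the other 3 lay between 0.02 and 0.11 without a call. The CUTL1 call of 225764_at was lost without CUTL1 PD-0332991 array 1 (0.0523), its DND41 call without either DND41 DMSO array or DND41 PD-0332991 array 1 (up to 0.0796), and the Jurkat call of 235056_at without Jurkat DMSO array 1 or Jurkat PD-0332991 array 1 (up to 0.248).

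TCF12 was not called on average. Levels of 208986_at were 11.18 and 11.04 in CEM with PD-0332991, against 10.62 and 10.74 with DMSO, and 10.12 and 10.47 in DND41, against 10.63 and 10.41. Treated arrays were higher without overlap in CEM, CUTL1 and Jurkat and overlapped in DND41. The average was 0.19 (SE 0.073, adjusted p 0.0561), and 0.33 (adjusted p 0.00844) over CEM, CUTL1 and Jurkat, an average chosen after the data had been seen. In single lines 238041_at alone was called, in CEM (0.51, SE 0.156, adjusted p 0.0375). That call was lost without CEM DMSO array 1, either CEM PD-0332991 array, either CUTL1 PD-0332991 array or either Jurkat PD-0332991 array (adjusted p up to 0.28).

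PHF6 held the 1 probe set whose change differed between the lines in the F test. In CEM, 225501_at had 11.71 and 11.28 with PD-0332991, against 11.09 and 11.01 with DMSO. In Jurkat it had 11.73 and 11.81 with PD-0332991, against 11.06 and 11.52 with DMSO. In DND41 it had 11.27 and 11.48 with PD-0332991, against 11.87 and 11.81 with DMSO, and in CUTL1 11.70 and 11.89, against 11.88 and 11.86. Treated arrays were thus higher in CEM and Jurkat, lower in DND41, and overlapping in CUTL1. The changes of 0.44 in CEM, 0.48 in Jurkat, -0.46 in DND41 and -0.07 in CUTL1 were not called alone (adjusted p 0.0513 to 0.817). The F test of the difference between lines was called for this probe set (F 8.10, adjusted p 0.0485), 1 of 28 against 7.79% of all probe sets tested. At an unadjusted p under 0.05 there were 3 of 28, where the share of all probe sets was not counted and is at least 7.79%.

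Of the 168 pairwise differences between line effects, 3 were called, and 2 of them were for 225501_at, at 0.90 for CEM minus DND41 (SE 0.223, adjusted p 0.0377) and -0.94 for DND41 minus Jurkat (SE 0.223, adjusted p 0.0337). The third was the GATA3 difference given above. Over all probe sets tested, 7.43% were called for CEM minus DND41 and 6.63% for DND41 minus Jurkat. The other line pairs, with 0 member calls, had 2.8% for CEM minus CUTL1, 1.18% for CEM minus Jurkat, 4.07% for CUTL1 minus DND41 and 1.4% for CUTL1 minus Jurkat. The F test for 225501_at was lost in 12 of the 16 fits that each left out 1 array (adjusted p 0.0161 to 0.139 over the 16), all but those without CEM PD-0332991 array 2, DND41 PD-0332991 array 2 or either Jurkat DMSO array. It was also lost after quantile normalization (0.0546) or cyclic loess (0.0518), without the filter (0.0685) and with the PHF6 probe sets averaged (0.0667). The other PHF6 probe set, 224442_at, fell in CUTL1 (-0.43, SE 0.136, adjusted p 0.0413), a call lost without either CEM PD-0332991 array, either CUTL1 DMSO array, CUTL1 PD-0332991 array 1 or either DND41 DMSO array (up to 0.27), without the filter (0.0677), with array weights (0.0627), with an intensity trend (0.0553) and from the CUTL1 arrays alone (0.0858).

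Of the 7 tested IKZF1 probe sets, 2 rose and 1 fell on average. That IKZF1 probe sets disagreed was known beforehand from these arrays, so the comparison of probe sets below is not independent support for it. The brightest, 227346_at, rose on average by 0.20 (SE 0.037, adjusted p 0.000994), and 227344_at by 0.36 (SE 0.039, adjusted p 1.69e-05). The rise of 227346_at was not called with each line's mean difference as 1 replicate (0.0915) or with all IKZF1 probe sets averaged (0.08, adjusted p 0.132). Levels of 227344_at were 10.12 and 10.14 in CEM with PD-0332991, against 9.57 and 9.63 with DMSO, and 9.94 and 9.96 in CUTL1, against 9.59 and 9.56. In Jurkat they were 9.71 and 9.77 with PD-0332991, against 9.43 and 9.36 with DMSO, and in DND41 8.98 and 8.90, against 8.85 and 8.68. The treated arrays were higher in every line without overlap, and the change was called in all lines but DND41.

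**Figure D4:**
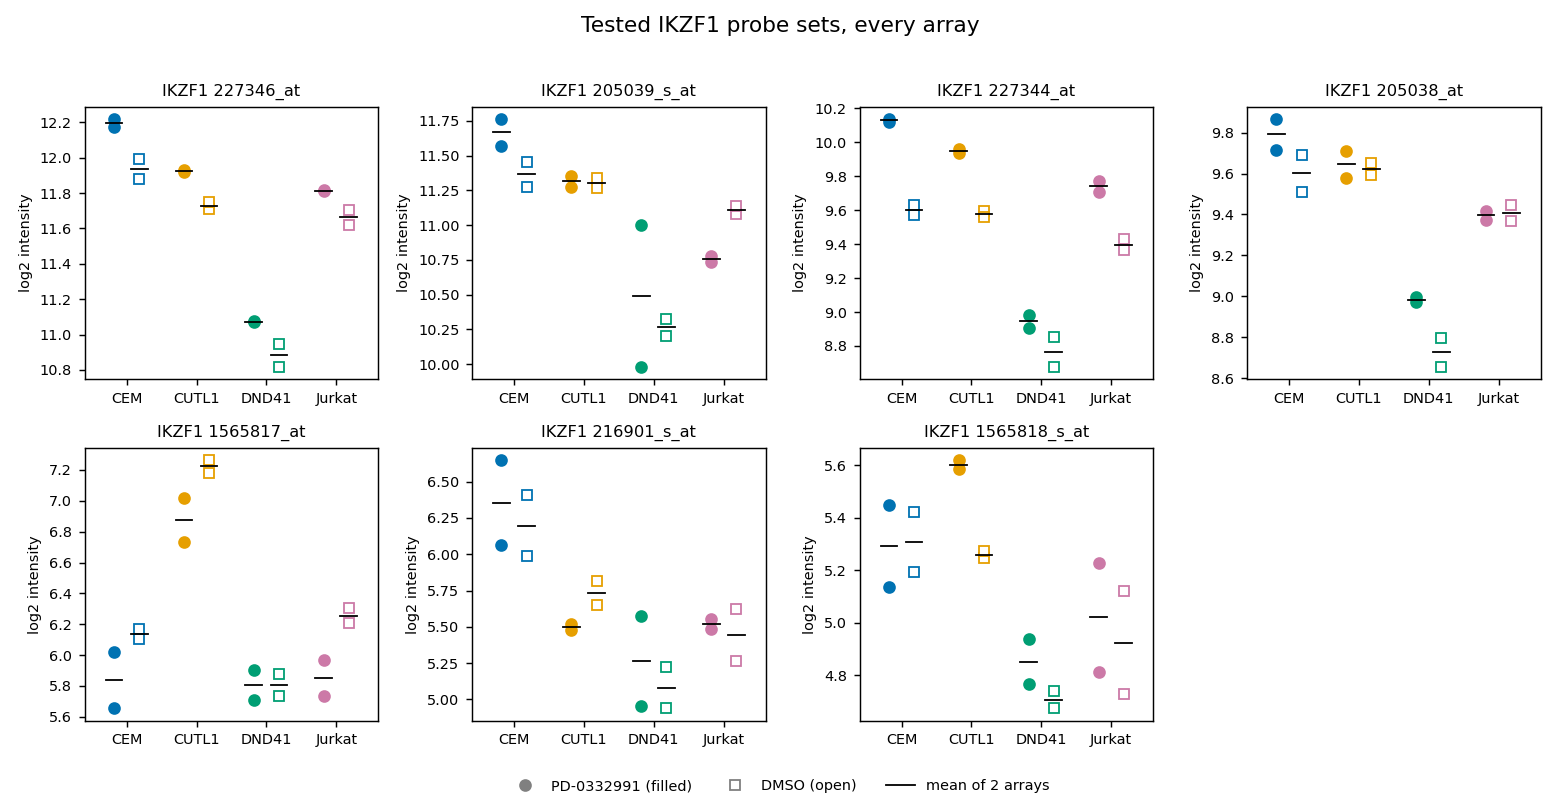
Level (log2 intensity) of the 7 tested IKZF1 probe sets on all 16 arrays, with filled circles for PD-0332991, open squares for DMSO and lines for the mean of 2 arrays. In 227346_at and 227344_at the PD-0332991 arrays are higher in all 4 lines, and in 1565817_at they are lower in CEM, CUTL1 and Jurkat.

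In the opposite direction, 1565817_at fell on average by 0.26 (limma change -0.26, SE 0.069, adjusted p 0.00945), a call lost with each line's mean difference as 1 replicate (adjusted p 0.1). Its levels were 5.66 and 6.02 in CEM with PD-0332991, against 6.17 and 6.10 with DMSO, and 6.73 and 7.02 in CUTL1, against 7.18 and 7.26. In Jurkat they were 5.74 and 5.97 with PD-0332991, against 6.21 and 6.30 with DMSO, and in DND41 5.71 and 5.90, against 5.88 and 5.73. The treated arrays were lower without overlap in CEM, CUTL1 and Jurkat and overlapped in DND41. Tested within arrays, the change of 1565817_at minus that of 227346_at was -0.46 (SE 0.072, adjusted p 0.00201), the only one of the 20 pairs of a member probe set with the brightest of its gene to be called. Over 11379 such pairs of all genes, 7.72% were called in this direction, 5.29% in the other and 13% in either. None of the 20 pairs differed between lines, against 0.141% of all pairs. Between 227344_at and 227346_at the difference was 0.16 (SE 0.048, adjusted p 0.0532).

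The probe set 1565818_s_at, numbered next to 1565817_at, did not fall (0.14, SE 0.081, adjusted p 0.19). The remaining tested probe sets, 205039_s_at, 205038_at and 216901_s_at, averaged 0.05, 0.12 and 0.05 without a call. In 205039_s_at the treated DND41 arrays stood far apart, at 11.00 and 9.98, around DMSO levels of 10.20 and 10.33. Without DND41 PD-0332991 array 2, the lower of that treated pair, its average change was 0.17, against 0.05 with all arrays. Whether either treated array was at fault cannot be told. The call of 227346_at in CEM (0.26) was lost without CEM DMSO array 1 or either CEM PD-0332991 array (adjusted p up to 0.173), and that of 227344_at in Jurkat without Jurkat PD-0332991 array 2 (0.074).

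Genes that act with or against these factors were counted with 1 probe set each, the brightest, in the average effect. Of all 13483 genes tested in this way, 25.4% rose and 19.3% fell, with a median change of 0.04, and the 8 factors had a median of 0.20. Of 14 partners and family relatives, 4 rose and 1 fell (median 0.07). IKZF2, which encodes the Ikaros relative Helios, rose by 0.61 (adjusted p 3.88e-07), BCL11A, the relative of BCL11B, by 0.38, and the TCF-family gene TCF7L2 by 0.32. CBFB, the shared partner subunit of the RUNX proteins, changed by -0.26 (adjusted p 0.000108), with a negative sign in each of the 4 lines.

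Of 11 antagonists, 2 rose and 3 fell (median -0.04). The 3 that fell were the ID genes ID1 (-0.45, adjusted p 6.4e-05), ID2 (-0.37) and ID3 (-0.18), whose proteins bind E proteins such as HEB and keep them off DNA. The Groucho-family corepressors TLE4, which rose by 0.28, and TLE3 were the 2 that rose. ID1 changed by 0.16 in DND41 and by -0.74 to -0.53 in the other 3 lines. In ID2 the change was -1.06 in CUTL1 and between -0.22 and -0.06 in the other 3 lines.

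Of 13 members of corepressor complexes, 1 rose and 6 fell (median -0.06). RBBP7 (-0.57, adjusted p 1.32e-07), MBD2 (-0.32), MTA2 (-0.27) and RBBP4 (-0.21) fell, all parts of the NuRD complex through which Ikaros and BCL11B repress genes. The NuRD subunits MBD3 (-0.20, adjusted p 0.003) and HDAC2 (-0.15, adjusted p 0.0188) fell as well. NuRD subunits did not move as 1 group, since GATAD2B was the 1 that rose (0.17, adjusted p 0.0094) and CHD4, HDAC1, MTA1 and GATAD2A were not called (adjusted p 0.257 to 0.931). RBBP7 and RBBP4 are also subunits of chromatin assembly complexes used in replication.

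Of 23 other factors of the T lineage, 12 rose and 0 fell (median 0.19), with HES1, a Notch target, at 0.51 (adjusted p 1.19e-05), the repressor BACH2 at 0.36, the chromatin organiser SATB1 at 0.36 and NFATC1 at 0.28. Of 22 receptor, surface and recombinase genes that mark thymocytes, 20 rose and 0 fell (median 0.35), including the adaptor LAT at 0.42 (adjusted p 1.59e-06), the receptor chain CD247 at 0.47, and CD1A and CD1E, surface proteins of cortical thymocytes, at 0.37 and 0.36. The 2 not called were CD3G (0.03) and CD8A (0.17). The 8 T-cell markers counted earlier are all among these 22 genes, so the counts overlap. Of 10 factors of other blood lineages, 3 rose and 2 fell (median 0.07), with CEBPB at -0.29, TAL1 at -0.32, EBF1 at 0.36 and ERG at 0.26. The signs of TAL1, EBF1 and ERG differed between lines. Array levels ran from 3.81 to 11.75 in TAL1, 2.90 to 8.61 in EBF1 and 3.67 to 9.72 in ERG. The lowest lay under the median of all deposited values (4.88), so these averages include arrays on which the genes were dim. These lists were drawn up with earlier results of these arrays known, and their counts are not independent evidence of a direction.

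**Figure D5:**
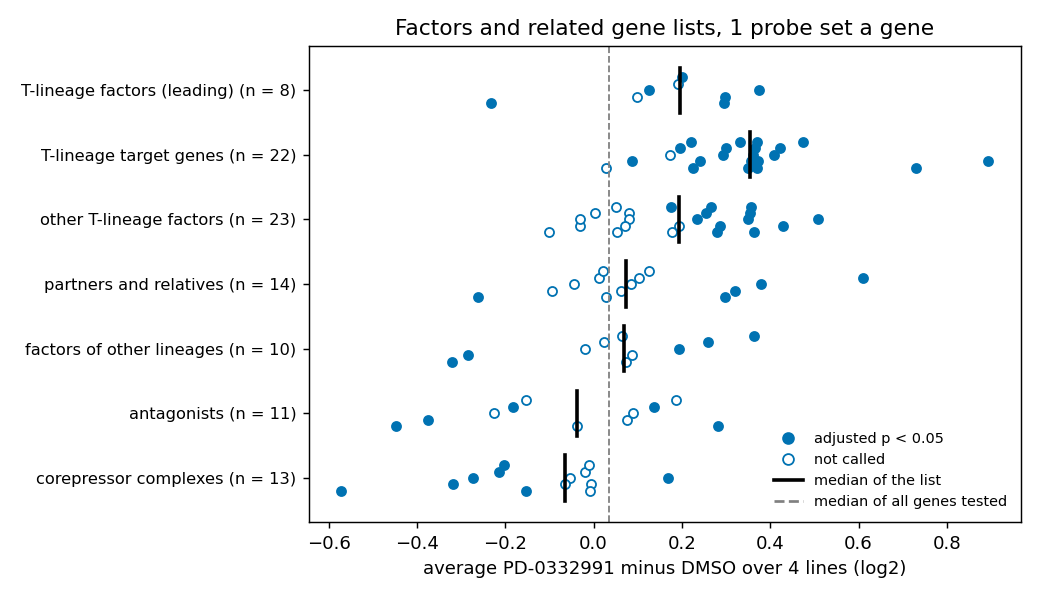
Average change with PD-0332991 over the 4 lines (log2) of the 8 factors and of 6 related gene lists, 1 point for each gene; filled points passed an adjusted p of 0.05, black bars are list medians and the dashed line is the median of all genes tested (0.04). Thymocyte receptor and surface genes lie farthest right, with a median of 0.35, and corepressor complexes farthest left, with a median of -0.06.

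The limits shared by these comparisons are those of 2 arrays a group. When each line's mean difference was taken as 1 replicate, 6 member probe sets rose and 0 fell. They were GATA3 209604_s_at and 209603_at, both bright BCL11B probe sets, IKZF1 227344_at and ETV6 225764_at. The share of all probe sets called in that fit was not counted. Whether the 2 arrays of a group stand for 2 cultures is not given in the labels, and the p-values therefore cover array-to-array spread alone, possibly of technical origin.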

How the data were processed

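RNA of 4 T-ALL lines was measured on Affymetrix U133 Plus 2.0 arrays. The labels' protocols name Nugen Ovation V2 amplification from 5 ng and biotin labelling. The authors deposited RMA values, per the submitters' processing notes, and the deposited values are intensities on a linear scale. Their log2 was taken here with no pseudocount, and no further normalization was applied. Arrays give no read depth, and precision is limited by how few arrays there are.

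limma 3.58.1 in R 4.3.3 was fitted with 8 group means, and p-values were adjusted by Benjamini-Hochberg. Treatment was tested on 24893 of 41097 probe sets with 1 symbol, those whose 4-array mean reached the median of all values (4.88 on the log2 scale) in any line. DMSO differences between lines were tested on all 41097, and a probe set was compared with the brightest of its gene within arrays. Of 54675 probe sets, 1801 had several symbols and 11777 had none. Members and gene lists were chosen with earlier results of these data known. The genes named are all members, and for each related list the 4 tested genes with the smallest p in the average effect. CD3G, CD8A, TLE3, PECAM1, ALAS2 and the NuRD genes MBD3, HDAC2, GATAD2B, CHD4, HDAC1, MTA1 and GATAD2A were chosen once values were known. The code was tested on simulated data. Alternatives covered normalization, filters, pseudocount, replicate block, array weights and each array left out, and 2 were added after the data had been seen.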

Additional observations from a re-analysis of the deposited data

Results flagged for a closer look

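In 4 values, all but 1 of them for PHF6 225501_at, the change with PD-0332991 differed between lines by a test of the difference itself. The F test called 1 of 28 member probe sets, against 7.79% of all probe sets tested. Of 168 pairwise differences of members, 3 were called. Over all probe sets tested, 7.43% were called for CEM minus DND41 and 6.63% for DND41 minus Jurkat. For PHF6 225501_at the limma F test over the 4 lines had an adjusted p of 0.0485, and it was lost in 12 of 16 fits without 1 array and in 5 of 13 other settings (up to 0.139). The difference in its change was 0.90 for CEM minus DND41 and -0.94 for DND41 minus Jurkat. For GATA3 209602_s_at the difference for DND41 minus Jurkat was -0.89, while its F test was not called (adjusted p 0.0668). The part of the array differences in DND41 was not tested.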

How the results depend on the processing

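Among line effects, average effects and differences between probe sets, no called value changed sign under the alternatives run. The called differences between line effects and between lines with DMSO were not recomputed pair by pair. With 1 probe set a gene, 8 genes differed between lines with DMSO, 5 rose in CEM, 2 rose and 0 fell in CUTL1, 2 fell in DND41, 3 rose and 1 fell in Jurkat, and 6 rose and 1 fell on average. When the probe sets of each gene were averaged, 8 differed with DMSO, 3 rose in CEM, 2 rose and 0 fell in CUTL1, 1 rose in DND41, 1 rose in Jurkat, 4 rose and 1 fell on average, and 0 passed the F test between lines. Quantile normalization gave 9 higher and 0 lower in DND41, 2 lower in Jurkat, 0 in the F test and 2 probe set pairs. Cyclic loess gave 8 higher in DND41, 1 lower in Jurkat, 0 in the F test and 2 pairs. Median centring gave 2 higher and 2 lower in DND41. An offset of 16 gave 2 lower in DND41, 1 lower in Jurkat, 2 in the F test and 3 pairs. Without the filter, CUTL1 gave 3 higher and 0 lower and the F test 0. The stricter filter gave 0 lower in CUTL1, 2 lower in DND41, 2 lower in Jurkat and 2 pairs. Fitting only the arrays compared gave 1 higher and 0 lower in CUTL1, 0 and 0 in DND41 and 3 higher in Jurkat. An intensity trend with robust estimation gave 0 lower in CUTL1, 2 lower in DND41, 8 higher in Jurkat and 2 in the F test. Array weights gave 0 lower in CUTL1, and diffSplice 2 pairs. With each line as 1 replicate, 6 rose and 0 fell on average. Over all probe sets tested, DND41 calls in either direction were 6116 of 24893 in the fit used above. They were 6197 after quantile normalization, 5991 after cyclic loess, 6344 after median centring and 6533 with the offset. The stricter filter gave 6211 of 19199. On average, 6288 of 13483 were called with 1 probe set a gene and 5790 of 12318 with probe sets averaged. Shares by direction, and those for the F test and the pairs, were not counted in these settings. The causes were not tested.

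Leaving out 1 array at a time gave 9 to 13 higher and 2 to 4 lower on average, 5 to 12 and 0 to 1 in CEM, 1 to 5 and 0 to 1 in CUTL1, 1 to 5 and 0 to 2 in DND41, and 4 to 8 and 0 to 1 in Jurkat. It gave 0 to 2 in the F test, 21 to 25 differing with DMSO, and 1 to 3 pairs.

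Same-numbered arrays deviated together at r of 0.14 in CEM, 0.18 in CUTL1, -0.23 in DND41 and 0.13 in Jurkat, and since DND41 ran the other way the numbers were not taken to pair the arrays. The replicate block gave 0 lower in CUTL1, 0 in the F test and 2 pairs, with 9 higher and 3 lower on average. Of all 24893 probe sets tested, 9865 were called on average in either direction with this block. Under it the F test of PHF6 225501_at (adjusted p 0.0626) and the CUTL1 fall of PHF6 224442_at (0.0787) were not called. With the numbers of DND41 crossed, a pairing chosen after seeing the data, the replicate block gave 3 lower in DND41.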

Other observations

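Over the 8 group means, the gene whose brightest probe set correlated most with each factor was IRGQ for GATA3 (r 0.99), PLA2G6 for BCL11B (0.97), HEXIM1 for LEF1 (0.99), ZNF346 for RUNX3 (0.99), ORAI2 for IKZF1 (0.98), LPAR6 for ETV6 (0.99), ZNF468 for PHF6 (0.97) and TPST2 for TCF12 (0.99). The points share lines and arrays, and the values are a description with no test.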
